A study of Rattus norvegicus with 23 samples.

Results

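Fatty acid oxidation was described here through 33 genes of the carnitine shuttle, acyl-CoA activation, beta-oxidation, electron transfer and their regulation, with Cpt1a, carnitine palmitoyltransferase 1A, at their centre. The genes were found by name among the 41012 probes of a rat expression array that are not controls, with old and new names of the same gene joined, and the probe with the highest mean intensity stood for each gene. All 33 genes had a probe, and 27 of them were measured above background and tested among 20179 features. The other 6 genes were Cpt1c, Ppargc1a, Ucp3 and Pdk4, whose probes were not well above background on any of the 23 arrays, Acox3, above it on 2 arrays, and Ehhadh, above it on 6 arrays. The probes that stood for the 27 tested genes were above background on all 23 arrays.

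The samples were peripheral blood mononuclear cells (PBMC), the white cells of blood other than granulocytes, taken from Wistar rat pups at 21 days of age and separated on a Ficoll density gradient. The groups were 5 male and 6 female pups of dams whose calories were restricted by 20% through lactation (CR), and 6 male and 6 female pups of dams fed freely (control). Each array carried the Cy5-labelled RNA of 1 pup against a Cy3-labelled pool of all samples, with no dye swap, so each value is a log2 ratio to the pool and 0 is the level of the pool. The study held 5 CR dams and 11 control dams, and the labels do not tie pups to dams, so pups that shared a litter were counted as independent and p-values may be too small.

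Fatty acids enter oxidation as acyl-CoA esters. Cpt1 proteins on the outer mitochondrial membrane pass the long-chain acyl group to carnitine, a step that malonyl-CoA inhibits and that is held to limit the rate of oxidation; a carrier takes the acylcarnitine inward, Cpt2 returns it to CoA, and the beta-oxidation enzymes shorten it while electron transfer flavoprotein passes the electrons on. Milk is rich in fat, and in suckling rats the liver runs this pathway at a high rate, while blood lymphocytes and monocytes carry the same enzymes.

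The Cpt1a promoter is shown because the results centre on this gene, and the promoter of Hadha because it lies head to head with that of Hadhb, its partner in the trifunctional protein. Both are 250 bases before the transcription start, from RefSeq on GRCr8, where 28 of the 33 genes had an entry. Capitals in the Hadha promoter mark the 200 bases that are also part of the 250 bases before the start of Hadhb on the other strand.
Cpt1a, chr1:209995910-209996159, plus strand: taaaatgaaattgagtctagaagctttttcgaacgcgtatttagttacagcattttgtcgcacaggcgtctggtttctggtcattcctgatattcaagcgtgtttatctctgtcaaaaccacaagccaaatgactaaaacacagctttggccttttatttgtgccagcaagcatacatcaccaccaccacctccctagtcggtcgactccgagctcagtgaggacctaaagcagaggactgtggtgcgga
Hadha, chr6:31907551-31907800, plus strand: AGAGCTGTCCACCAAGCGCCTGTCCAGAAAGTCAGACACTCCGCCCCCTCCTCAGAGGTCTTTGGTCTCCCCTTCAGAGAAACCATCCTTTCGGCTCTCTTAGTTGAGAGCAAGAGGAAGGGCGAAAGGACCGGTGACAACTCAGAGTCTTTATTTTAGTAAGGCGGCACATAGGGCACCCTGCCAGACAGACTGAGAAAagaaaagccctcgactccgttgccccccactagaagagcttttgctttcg
The start sites of Hadha and Hadhb were 301 bases apart. The nuclear receptor half-site (AGGTCA) was searched for on both strands, alone, as a direct repeat with 1 base between the copies (DR1, the kind that PPAR and RXR bind) and within the longer element bound by oestrogen-related receptors (TCAAGGTCA). None of the 28 promoters held an exact copy of the repeat or the longer element, which were in 0.0508% and 0.388% of all 33469 promoters. At such shares 28 promoters are too few to show a lack of either element. The 28 were counted once per gene, while the share over all counts every promoter entry. The half-site alone, which is part of the repeat and of the longer element, was in 4 of 28, or 14.3%, against 14.1% of all promoters. These were the promoters of Acadvl, Echs1, Eci1 and Ucp3. The ETS element (CCGGAAG) was in 3 of 28, those of Acad9, Cpt2 and Slc25a20, or 10.7%, against 7.27% of all promoters. The CCAAT box was in 7 of 28, or 25%, against 34% of all promoters, and the Cpt1a promoter held none of these elements. The median GC content was 58.6% over the 28 promoters and 51.2% over all.

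Between 20603 and 24076 probes per array were well above background, and Pearson's r between arrays ran from -0.244 to 0.695 over all features. CR female replicate 6 and control female replicate 3 had the widest spread of log2 ratios (SD 0.308 and 0.302), and CR female replicate 5 had the lowest median r with the other arrays (0.067).

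None of the 27 genes passed the test in any comparison. limma, with Benjamini-Hochberg adjustment over all 20179 features and a threshold of 0.05, called 0% of features for CR minus control in either sex. The same share, 0%, was called for the average over both sexes and for the male minus the female diet difference. The smallest adjusted p of a member was 0.644 in males, 0.991 in females, 0.584 for the average over both sexes and 0.934 for the male minus the female difference. At an unadjusted p under 0.05, 2 of 27 members stood in males, Cpt1a (higher in CR) and Acadl (lower in CR), against 7.1% of all features. In females it was 1 of 27, Decr1 (higher in CR), against 4.69% of all features. Averaged over both sexes it was 3 of 27, the same 3 genes, against 7.36%. No member reached it for the male minus the female diet difference, where 4.63% of features did. These shares lie near those of all features. They rest on the probe of highest mean intensity for each gene, and other probes of a gene were not counted.

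The direction of the members was divided. In CR males against control males 16 members had higher and 11 lower values, with a median log2 difference of 0.03, and over all features 47.1% were higher with a median of -0.01. This count rests on the within-array loess: with arrays centred on their medians 1 of 27 was higher in CR males, the median of the members was -0.37 and that of all features -0.19. In CR females against control females 14 members were higher and 13 lower. The log2 differences of the members ran from -0.24 to 0.37 in males and from -0.24 to 0.26 in females, with standard errors (SE) of 0.06 to 0.24 and 0.05 to 0.23.

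**Figure D1:**
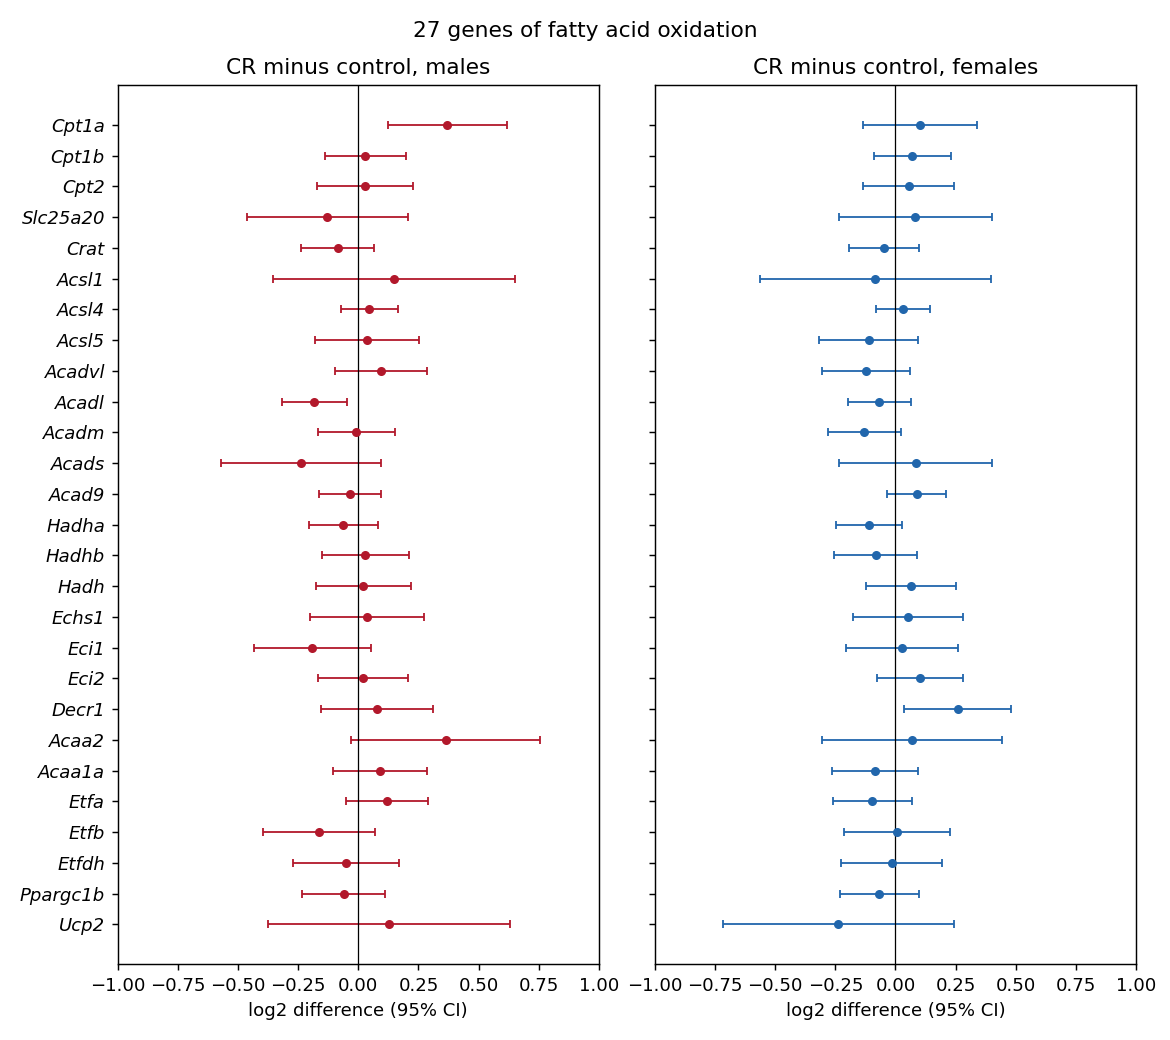
Log2 difference of CR minus control for the 27 tested genes (rows), in males on the left and in females on the right, with 95% confidence intervals from limma. The intervals of Cpt1a and Acadl in males and of Decr1 in females leave out 0 before adjustment for multiple tests, and Acsl1 and Ucp2 have the widest intervals.

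Cpt1a had the largest difference of the members in males. Its probe lies at chr1:205912066-205912125 on rn4, plus strand, and was printed 10 times on each array. The log2 ratio to the pool was 0.23, 0.76, 0.25, 0.31 and 0.39 in the 5 CR males. In the 6 control males the lowest value was -0.33, the median 0.05 and the highest 0.30. All 5 CR males lay above the mean of the control males, 3 of them above the highest control male, and the ranges overlapped between 0.23 and 0.30. The means were 0.39 ± 0.22 in CR males (SD, n = 5) and 0.02 ± 0.23 in control males (SD, n = 6).

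The log2 difference of Cpt1a in males was 0.37 ± 0.12 (SE), a 1.29-fold ratio, with a 95% confidence interval of 0.12 to 0.62 and an adjusted p of 0.644 by limma. An exact two-sided permutation test over the 11 males gave p = 0.015, unadjusted. It was 1 of 54 such tests computed over 27 genes and both sexes, of which 4 were under 0.05. Such tests were not run over all features, so this count is no result about the members. In females the CR values had a lowest of -0.07, a median of 0.33 and a highest of 0.41, and the control values a lowest of -0.13, a median of 0.16 and a highest of 0.40. The ranges of the female groups overlapped nearly throughout, and the difference was 0.10 ± 0.11 (exact permutation p = 0.374). It was 0.22 without CR female replicate 6 and control female replicate 3, ran from 0.05 (without control female replicate 6) to 0.16 (without CR female replicate 6) with 1 array left out, and was 0.23 with scale normalization. The male difference exceeded the female one by 0.27 ± 0.16 (adjusted p = 0.934 by limma), with an interval of -0.07 to 0.61.

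The 10 replicate spots of Cpt1a had a median SD of 0.05 within an array, against an SD of 0.21 between arrays of a group. The spread between arrays was thus 3.80 times that between spots. With 1 array per pup, differences between pups cannot be told apart from those between arrays. Within slides, CR males were above control males for Cpt1a on 4 of 4 slides that held both, by 0.04 to 0.90. With the slide as a block the difference was 0.36. In females CR was above control on 4 of 6 slides. Among the other members, Acadvl and Acaa2 were also higher in CR males on 4 of 4 slides, and Acadl, Eci1 and Etfb were lower on all 4. Hadha was lower in CR females on 6 of 6 slides. Slides were not counted in this way over all features. Without CR male replicate 2, the highest array, the Cpt1a difference in males was 0.28. With each array centred on its median in place of loess the difference in males was 0.04, in a fit in which the median of all features moved to -0.19, so that value lay above the median of all features in that fit.

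**Figure D2:**
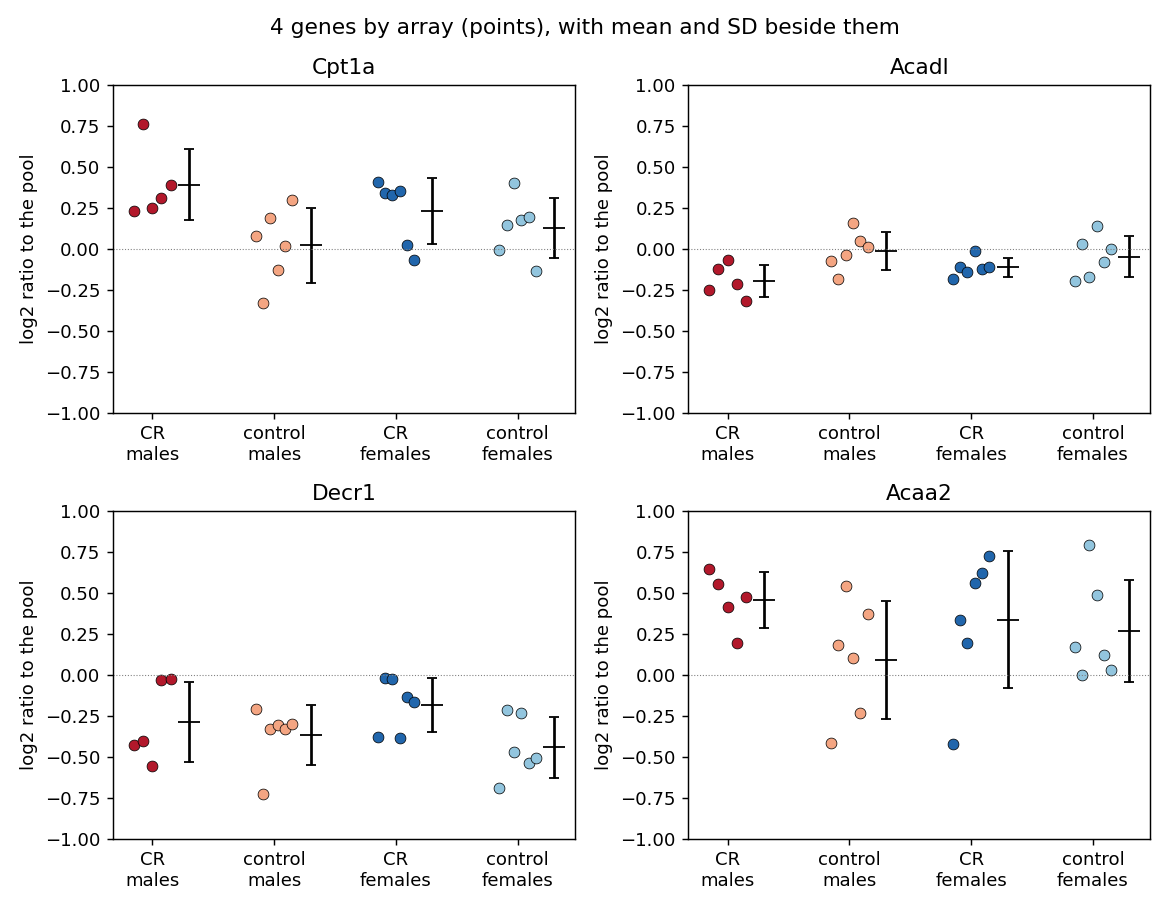
Log2 ratio to the pool of Cpt1a, Acadl, Decr1 and Acaa2 on each array, with points for arrays in the 4 groups and the mean with SD as a bar at the right of each group. The 5 CR males lie between 0.23 and 0.76 for Cpt1a, and the 6 CR females lie between -0.39 and -0.02 for Decr1.

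Mean values of marker lists of blood cell types differed between the diet groups in the same samples. The list differences were not tested, and limma called 0% of features for diet in either sex. Arrays of the groups overlapped: class II and dendritic cell markers ran from -1.07 to 0.30 in CR males and from -0.59 to 0.55 in control males. Red cell markers ran from -1.47 to 0.60 in CR males and from -1.83 to -0.06 in control males. The mean log2 ratio of 10 B cell markers was lower by 0.40 in CR males (10 of 10 markers lower; arrays from -0.50 to 0.11 in CR males and from -0.04 to 0.62 in control males) and that of 7 class II and dendritic cell markers was lower by 0.60 (7 of 7). In CR females the same lists were lower by 0.30 (9 of 10) and 0.56 (7 of 7, or 6 of 7 under scale normalization). The 7 class II and dendritic cell markers were Cd74, RT1-Da, RT1-Db1, RT1-Ba, RT1-Bb, Cd83 and Ccr7. Itgax and Flt3 were listed but not measured, and RT1-Ba was detected on 16 of the 23 arrays. The median difference of the 7 was -0.49 in males and -0.35 in females. The 15 T cell markers were at 0.16 in CR males and 0.03 in control males, and at 0.03 in CR females and 0.09 in control females. In males 4 of the 15 were lower in CR, against 12 of 15 with arrays centred on their medians, where their mean difference was -0.25 and the median of all features -0.19. Neutrophil markers stood at 0.11 in CR males and -0.17 in control males (0 of 7 lower in CR) and at 0.27 in CR females and 0.05 in control females (1 of 7 lower). NK cell markers stood at 0.05 in CR males and -0.17 in control males (2 of 11 lower), and differed by 0.03 in females. Red cell markers were higher by 0.75 in CR males (0 of 6 lower) and differed by -0.33 in females (6 of 6 lower), where scale normalization turned the difference to 0.05 with 3 of 6 lower and gave 0.41 in males. Monocyte markers differed by 0.08 in males (1 of 11 lower) and -0.20 in females (10 of 11 lower), and platelet markers by -0.02 in males (2 of 4 lower) and -0.31 in females (4 of 4 lower). With arrays centred on their medians the male differences were -0.14 for monocytes, -0.03 for NK cells and 0.06 for neutrophils. The part of these cells in the Cpt1a values was not tested, and in bulk RNA a smaller share of a cell type cannot be told apart from less RNA per cell. T cell and monocyte markers such as Cd3e and Cd14 were detected on all 23 arrays. So were markers listed for cells that such a gradient is meant to remove, red cells (Hbb and Alas2) and neutrophils (S100a8 and S100a9). Other genes of the neutrophil list were seldom detected and not kept: Mmp8 on 4 arrays, Mmp9 on 5, Ltf on 3 and Il8rb on 1. Which cells gave these signals was not tested.

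The other members of the carnitine shuttle differed little. Cpt1b, the muscle form of the enzyme, stood at 0.03 ± 0.08 (log2 difference ± SE) in males and 0.07 ± 0.08 in females. A second probe of Cpt1b, above background on 10 arrays, gave -0.08 ± 0.06 in males and 0.08 ± 0.06 in females. Cpt2 had values of -0.23, 0.23, -0.11, 0.03 and 0.05 in CR males and from -0.22 to 0.19 in control males, and its difference was 0.03 ± 0.10 in males and 0.06 ± 0.09 in females. Slc25a20, the carnitine-acylcarnitine carrier, spread more widely, at -0.75, 0.09, -0.63, -0.06 and -0.25 in CR males and from -0.49 to 0.04 in control males. CR female replicate 5 stood at 0.71 for it, while the other CR females lay from -0.26 to 0.14. Its difference was -0.13 ± 0.16 in males and 0.08 ± 0.15 in females. Crat, which makes and cleaves short acylcarnitines, had -0.28, 0.21, -0.11, 0.08 and -0.02 in CR males and -0.04 to 0.18 in control males. Its difference was -0.09 ± 0.07 in males and -0.05 ± 0.07 in females, where the groups overlapped from end to end.

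Of the acyl-CoA synthetases, which activate fatty acids, Acsl4 had the least spread of all members (within-group SD 0.09) and Acsl1 nearly the most (0.43). Acsl1 had values of -0.25, -0.38, -0.15, -0.41 and -0.64 in CR males. In control males it ran from -1.28 through a median of -0.47 to 0.10, so the CR males lay inside the range of the control males. The log2 differences were 0.15 ± 0.24 in males and -0.08 ± 0.23 in females. The 4 probes of the gene gave 0.05 to 0.23 in males, with an SE of 0.11 for the highest, and -0.16 to -0.08 in females. Acsl5 stood at 0.04 ± 0.10 in males and -0.11 ± 0.10 in females, and Acsl4 at 0.05 ± 0.06 in males and 0.03 ± 0.05 in females. The second probe of Acsl4 gave -0.10 ± 0.06 in males and -0.01 ± 0.06 in females.

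Acadl, the long-chain acyl-CoA dehydrogenase, had the smallest p of the members that were lower in CR males. Its log2 ratios were -0.25, -0.12, -0.07, -0.21 and -0.32 in CR males, against -0.18 at the lowest, -0.01 at the median and 0.16 at the highest in control males. Each CR male lay below the mean of the control males, and 3 of 5 lay below the lowest of them. The difference was -0.18 ± 0.07 (adjusted p = 0.644 by limma; exact permutation p = 0.028, unadjusted), and it was negative on 4 of 4 slides, from -0.33 to -0.12. In females CR values ran from -0.18 to -0.01 and control values from -0.19 to 0.14, with a difference of -0.07 ± 0.06. The mean of the sexes was -0.12 ± 0.05 (adjusted p = 0.584 by limma). With each array centred on its median the male difference was -0.65 ± 0.18 (adjusted p = 0.089 by limma), beside the median of all features at -0.19 in that fit.

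The other acyl-CoA dehydrogenases act on other chain lengths. Acadvl, which takes very long chains, had 0.24, 0.32, 0.03, 0.05 and 0.25 in CR males and -0.03 to 0.18 in control males, so that 3 of 5 CR males lay above every control male. In CR females it had a lowest of -0.03, a median of 0.08 and a highest of 0.56, against 0.13, 0.23 and 0.56 in control females. The difference was 0.10 ± 0.09 in males and -0.12 ± 0.09 in females, and the second probe gave -0.06 ± 0.08 in males and -0.17 ± 0.08 in females. Acadm, the medium-chain enzyme, had 0.17, 0.04, -0.13, -0.20 and -0.23 in CR males and -0.22 to 0.17 in control males, nearly the same range. It had a highest value of 0.01 among the 6 CR females, below the mean of the control females (0.04), and 4 of them lay below the lowest control female. An exact permutation test of Acadm in females gave p = 0.017, unadjusted. By limma the difference was -0.13 ± 0.07, with an unadjusted p of 0.088 and an adjusted p of 0.991. In males it was -0.01 ± 0.08. Acads, the short-chain enzyme, varied most of the dehydrogenases, with -0.61, 0.16, -0.50, 0.21 and 0.29 in CR males and a difference of -0.24 ± 0.16. Acad9, which also serves assembly of respiratory complex I, stood at -0.04 ± 0.06 in males and 0.09 ± 0.06 in females. The second probe of Acad9 gave 0.02 ± 0.09 in males and -0.02 ± 0.08 in females.

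The later steps are run by the trifunctional protein on long chains and by separate enzymes on shorter ones. Hadha, its alpha subunit, had -0.04, 0.10, 0.17, 0.02 and -0.12 in CR males and -0.06 to 0.21 in control males, a difference of -0.06 ± 0.07. In females it ran from -0.06 to 0.17 in CR and from -0.03 to 0.36 in control, a difference of -0.11 ± 0.07. Hadhb, the beta subunit, had -0.12, 0.22, -0.32, -0.13 and -0.12 in CR males and -0.26 to 0.04 in control males, and its difference was 0.03 ± 0.09 in males and -0.08 ± 0.08 in females. The groups overlapped for both subunits in both sexes. The probes of Hadha disagreed in males: 2 gave -0.06 ± 0.07 and -0.12 ± 0.08, and the third gave 0.20 ± 0.10. The 2 genes share the head-to-head promoter given above, and their deviations from the group means had a Pearson's r of 0.397 over the 23 arrays. Hadh, the dehydrogenase of shorter chains, and Echs1, the hydratase, stood at 0.02 ± 0.09 and 0.04 ± 0.11 in males.

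Acaa2, the mitochondrial thiolase, had the second largest difference in males. Its values were 0.64, 0.55, 0.41, 0.19 and 0.47 in CR males, against -0.42 at the lowest, 0.14 at the median and 0.54 at the highest in control males. All 5 CR males lay above the mean of the control males, but the ranges overlapped. The difference was 0.36 ± 0.19 (adjusted p = 0.721 by limma; exact permutation p = 0.071), positive on 4 of 4 slides, and the second probe gave 0.33. With arrays centred on their medians it was -0.006, where the median of all features was -0.19. In females it was 0.07 ± 0.18, with CR values from -0.42 to 0.72.

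Decr1, the dienoyl-CoA reductase that unsaturated fatty acids need, differed most in females. Its log2 ratios in CR females had a lowest of -0.39, a median of -0.15 and a highest of -0.02, against -0.69, -0.49 and -0.21 in control females. All 6 CR females lay above the mean of the control females and 4 above the highest of them. The difference was 0.26 ± 0.11 (adjusted p = 0.991 by limma; exact permutation p = 0.035, unadjusted), and CR was higher on 5 of 6 slides. In males it was 0.08 ± 0.11, and the male difference minus the female one was -0.18 ± 0.16. Of the isomerases for the same fatty acids, Eci1 stood at -0.19 ± 0.12 in males and 0.03 ± 0.11 in females, and Eci2 at 0.02 ± 0.09 in males and 0.10 ± 0.09 in females.

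Of the peroxisomal enzymes Acaa1a, Acox3 and Ehhadh, only Acaa1a, a thiolase, passed the filter. It stood at 0.09 ± 0.09 in males, where 1 control value was missing after removal of flagged spots, and at -0.09 ± 0.09 in females. The second probe of Acaa1a gave -0.06 in males and -0.13 in females. Of 14 other genes listed for peroxisomal oxidation, 10 were tested. Of the electron transfer flavoprotein subunits, Etfa stood at 0.12 ± 0.08 in males and -0.10 ± 0.08 in females, and Etfb at -0.16 ± 0.11 in males and 0.01 ± 0.11 in females. Etfdh, which hands the electrons to ubiquinone, had -0.19, 0.46, -0.16, 0.12 and 0.15 in CR males and -0.03 to 0.33 in control males, and its difference was -0.05 ± 0.11 in males and -0.02 ± 0.10 in females. Etfa had the smallest unadjusted p of the members for the male minus the female diet difference, with 0.22 ± 0.11 (adjusted p = 0.934 by limma).

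Among regulators, Ppargc1b, a coactivator of mitochondrial genes, had 0.15, 0.12, 0.18, 0.17 and 0.25 in CR males, all within the control males' -0.01 to 0.52. Its difference was -0.06 ± 0.08 in males and -0.07 ± 0.08 in females. A second probe of Ppargc1b, above background on 10 arrays, gave 0.11 ± 0.07 in males and -0.03 ± 0.07 in females. Ucp2, a carrier of the inner mitochondrial membrane, had values of 0.44, 0.54, 0.39, 0.04 and 0.09 in CR males and from -0.31 to 0.53 in control males, a difference of 0.13 ± 0.24. In females the CR values had a lowest of 0.04, a median of 0.17 and a highest of 1.81, against 0.24, 0.64 and 1.09 in control females. Of the 6 CR females 4 lay below every control female, and CR female replicate 5 lay above them all. The difference in females was -0.24 ± 0.23, and it was -0.52 without CR female replicate 5. That replicate also stood highest of all arrays for Acsl1 and Slc25a20, whose differences in females without it were -0.24 and -0.05.

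Ucp2 and Acsl1 followed the red cell markers from array to array. Over the 23 arrays, after the mean of each group was taken away, the mean of 6 red cell markers (Hbb, Alas2, Slc4a1, Epb4.2, Gata1 and Klf1) correlated with Acsl1 at r = 0.863 (Pearson) and rho = 0.901 (Spearman), and with Ucp2 at r = 0.828 and rho = 0.723. Permutation tests with 100000 resamples gave p = 1e-05, the smallest they can give, for both values of r, and adjusted p = 0.00108 over the 216 relations of 27 genes with 8 marker lists. Without the 2 arrays farthest from the median of the markers r was 0.825 for Acsl1 and 0.663 for Ucp2, and with slides also removed it was 0.834 and 0.894. Without CR female replicate 5 it was 0.833 and 0.691. The red cell mean itself was -0.25 in CR males and -0.999 in control males, and -0.42 in CR females and -0.09 in control females, and CR female replicate 5 was the highest array at 1.96.

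**Figure D3:**
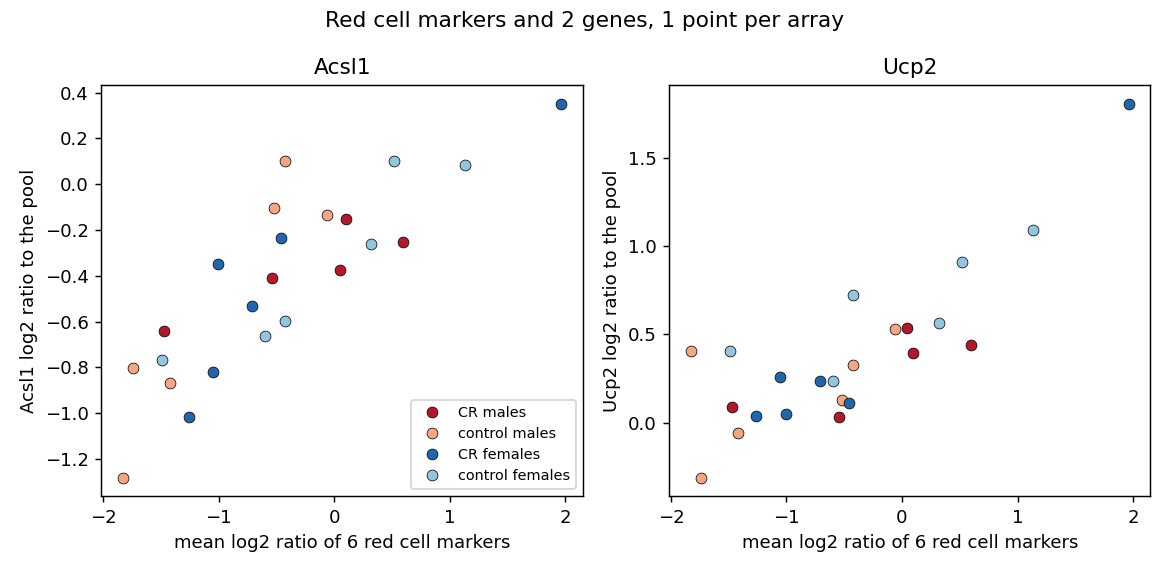
Log2 ratio to the pool of Acsl1 (left) and Ucp2 (right) against the mean log2 ratio of 6 red cell markers, with 1 point per array and colours for the 4 groups. Both genes tend to be higher on arrays with higher red cell markers, and the array at the upper right is CR female replicate 5 (1.96 for the markers, 0.35 for Acsl1 and 1.81 for Ucp2).

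3 further relations passed adjustment by Pearson's r. Cpt2 followed the 7 neutrophil markers (r = 0.717, rho = 0.802, permutation p = 8.0e-05, adjusted p = 0.00576, and r = 0.636 without the 2 farthest arrays); r was 0.456 with the deposited value table and up to 0.789 under the other normalizations. Eci1 and Etfb ran against the 15 T cell markers (r = -0.692 and -0.683, adjusted p = 0.0113 and 0.022 by permutation), but their rho of -0.554 and -0.404 did not pass, and r turned to 0.167 and 0.424 when arrays were centred on their medians. Cpt1a had an r of 0.452 with the T cell and -0.543 with the platelet markers, and neither passed. The relations were chosen for report after all 216 were computed, and the part of these cell types in any diet difference was not tested.

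The members did not vary as a single block. Over their 351 pairs the median r of deviations from group means was 0.097, from -0.709 (Acsl1 with Ppargc1b) to 0.757 (Acads with Hadh). The arrays share the pool, the slides and the mix of cells, so these values are a description. High pairs also joined Cpt2 with Eci2 (0.75), Eci2 with Etfdh (0.714) and Acadl with Hadha (0.71), and Acsl1 with Ucp2 (0.614). The median within-group SD of the members was 0.16, against 0.14 over all features, with Ucp2 (0.43) and Acsl1 (0.43) at the upper end.

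**Figure D4:**
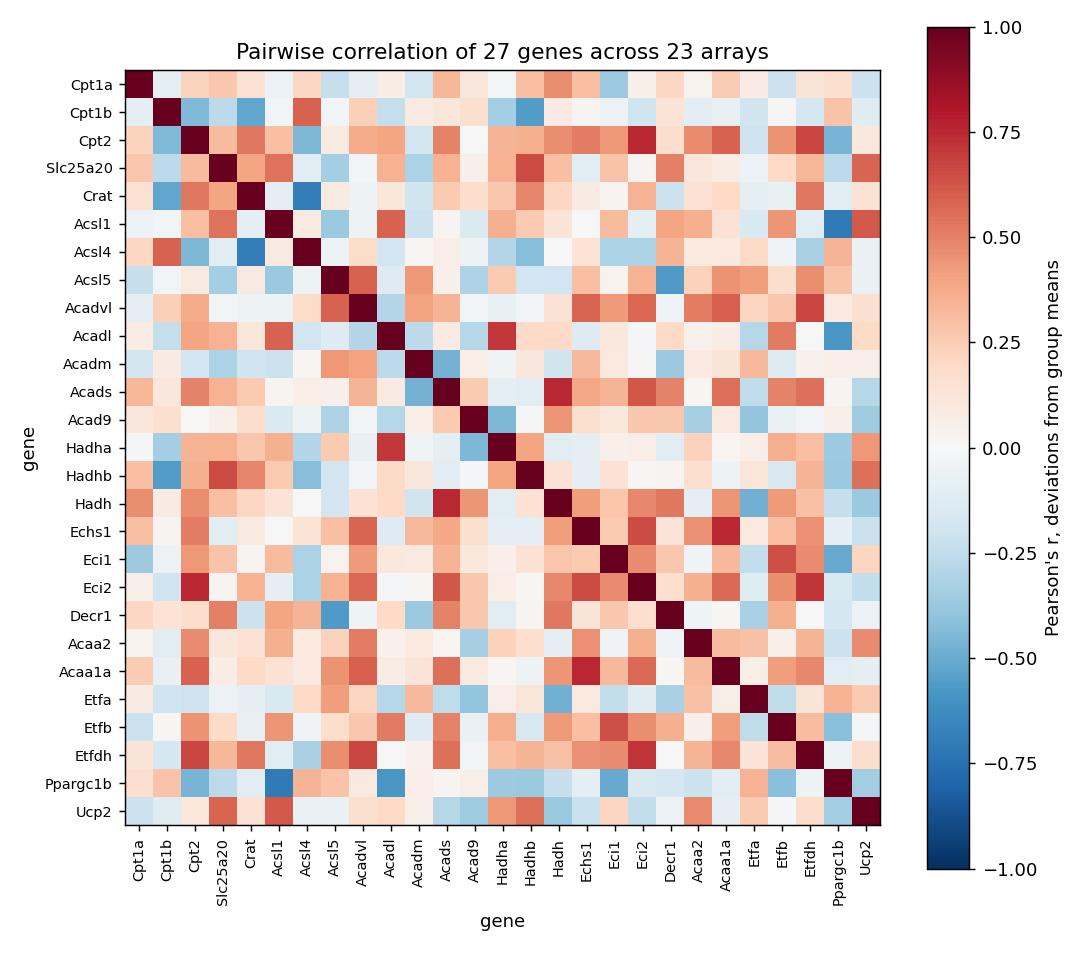
Pearson's r between the deviations from group means of each pair of the 27 genes over 23 arrays, as colour from -1 (blue) to 1 (red). No single block holds all genes, and the row of Cpt1a has its highest value at Hadh (0.461).

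The median r of Cpt1a with the 26 other members was 0.099, close to the 0.097 over all 351 pairs, and 95% of all features had an r with Cpt1a between -0.462 and 0.477. The named genes most like it were Cpne7_predicted (0.823), Bag5 (0.774), Cdc42se1 (0.714), Casp8 (0.708) and Impa2 (0.686), and the most opposed were Prl3d4 (-0.737), Gmpr (-0.725) and Muc20_predicted (-0.683). These genes were picked as the extremes of the whole array over 23 arrays.

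Between the sexes, averaged over diets, 23 of 27 members were lower in males, with a median of -0.05, against -0.002 over all features. This count was noticed after the values were seen. limma called none of the members, against 0.0595% of all features, and the unadjusted test gave 2 of 27, against 7.43%, namely Slc25a20 (-0.27 ± 0.11) and Acads (-0.25 ± 0.11), both lower in males. The number lower in males was 17 of 27 with Cy5 used alone.

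Genes around the pathway, on 10 lists of carnitine supply, control of Cpt1, acyl-CoA handling, peroxisomes, ketone bodies, branched-chain oxidation, PPAR regulators and targets, and pyruvate dehydrogenase, were no clearer. Of 116 listed genes 74 were tested and none was called by limma in males, in females or for their mean. In CR males 30 of them were higher and 44 lower, and in CR females 28 were higher and 46 lower. At an unadjusted p under 0.05 by limma, 2 of the 74 were higher and 2 lower in males, against 7.1% of all features. In females 1 was higher and 0 lower, against 4.69%. For the mean of the sexes 2 were higher and 7 lower, against 7.36%. The lists were not tested as sets. The retinoid receptors that pair with PPAR had the smallest p in males, with Rxrb at -0.34 ± 0.11 and Rxra at -0.20 ± 0.07 (adjusted p = 0.644 for both by limma). Rxrb stood at -0.19 ± 0.11 in females and at -0.26 ± 0.08 for the mean of the sexes (adjusted p = 0.584 by limma). Of the 9 tested genes of malonyl-CoA and AMPK control of Cpt1, all 9 were lower in CR females, where 51.6% of all features were higher. None of the 9 reached an unadjusted p under 0.05 by limma in females. This list, 1 of 10, was singled out after its values were seen. Among the 9, Acaca, which makes malonyl-CoA, stood at -0.14 ± 0.10 in females, and the list median was -0.08. In males 4 were higher and 5 lower. In females 7 to 9 of the 9 were lower under 5 other normalizations, and the list median ran from -0.15 with median centring to -0.02 with scale normalization.

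Other genes named around the pathway had differences of similar size, except for larger ones of Fabp1 in both sexes and Cd36 in males. Aldh9a1, of carnitine synthesis, stood at -0.18 ± 0.11 in males and -0.20 ± 0.10 in females. Slc27a2, an acyl-CoA synthetase, stood at 0.28 ± 0.11 in males, and Amacr, a racemase of branched chains, at 0.15 ± 0.06 in females. Fabp1, a fatty acid binding protein, had the largest difference, at -1.16 ± 0.61 in males and -0.76 ± 0.58 in females, with standard errors to match. Cd36, which takes up fatty acids, had the smallest p of the listed PPAR targets in males, where the log2 difference was 0.96 ± 0.41 (adjusted p = 0.671 by limma). In females Cd36 stood at -0.22 ± 0.39. Of the AMPK genes, Prkag1 stood at -0.22 ± 0.11 and Stk11, the kinase that activates AMPK, at 0.22 ± 0.11 in males. Acadsb, a branched-chain acyl-CoA dehydrogenase, stood at 0.23 ± 0.12 in males, and Mccc2, of leucine breakdown, at 0.20 ± 0.11 in females. Of the ketone body genes Bdh2 stood at -0.10 ± 0.06 in males and Bdh1 at -0.16 ± 0.08 in females. Pdp2, a phosphatase of pyruvate dehydrogenase, stood at 0.13 ± 0.06 in females, and the thioesterase Acot7 at -0.10 ± 0.11 in males.

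**Figure D5:**
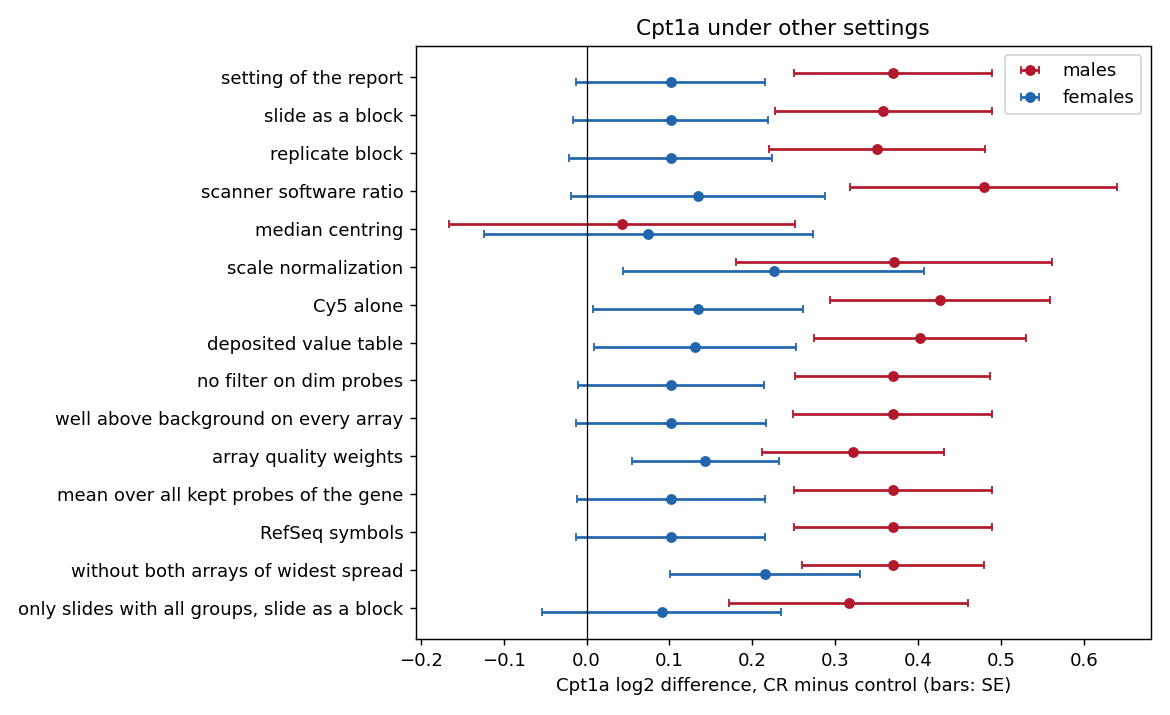
Log2 difference of Cpt1a, CR minus control, under the setting of the report and the other settings (rows), in males and in females, with SE as bars. The value in males lies between 0.32 and 0.48 in each row except median centring, where it is 0.04.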

How the data were processed

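RNA of 23 PBMC samples was hybridised to 2-colour Agilent rat arrays, and the submitters' processing notes name Agilent Feature Extraction 10.5.1.1 as the authors' scanner software. Raw intensity of both channels at each spot was deposited without normalization, per the file headers. That software's own log10 ratio (Cy5 to Cy3) and other columns holding its spot flags were deposited beside it, per the file headers. A table deposited by the authors has log2 levels for 22920 of 43379 spots other than controls. Its columns had a median of 7.23 and followed Cy5 of the same array (r from 0.989 to 0.997); how it was made and centred is not given in the sources used here, and it served as an alternative only.

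Intensities were corrected with limma's normexp (offset 50), normalized by loess within arrays, and expressed as log2 Cy5 over Cy3. Spots flagged as outliers were set to missing and spots of a probe averaged. A probe was kept when well above background on at least 50% of the arrays of 1 group, which kept 23693 of 41012. A model of 4 group means over all 23 arrays was fitted in R 4.3.3 with limma 3.58.1 (prior degrees of freedom 3.40), with Benjamini-Hochberg adjustment over 20179 features; the procedure was tested on simulated data. The number of arrays limits the precision. Probe positions are on rn4, per the file headers. RefSeq tables on GRCr8 gave names and promoters.

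The members, gene lists and marker lists were chosen with earlier results of these data known. Values by array were given for Cpt1a, for members at an unadjusted p under 0.05 and for a fixed set of others; from each pathway list the 2 members with the smallest p in a comparison were eligible, and not all are named. Acadm in females, Acaa2, the count between the sexes, the malonyl-CoA and AMPK list in females and the relations to marker lists were singled out after their values were seen. For those relations the deviations from group means were permuted as if exchangeable. Alternatives were 12 settings, each of the 23 arrays left out in turn, and 2 settings added after the data were seen, as well as 5 of these normalizations for the relations. Among the alternatives, single genes were followed where they were Cpt1a or had an unadjusted p under 0.05 for diet.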

Additional observations from a re-analysis of the deposited data

Results flagged for a closer look

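In 6 of the 108 groups of arrays examined (27 genes in 4 groups), 1 array lay far from the others by Dixon's criterion, and chance alone gives about 1 in 20 groups. Ucp2 stood at 1.81 in CR female replicate 5, while the other CR females lay from 0.04 to 0.26. Acadvl stood at 0.56 in CR female replicate 6, with the others from -0.03 to 0.16, and Etfb at 0.28 on the same array, with the others from -0.30 to -0.10. Echs1 stood at 0.47 in control female replicate 3, with the others from -0.05 to 0.04. Hadh stood at -0.62 and Decr1 at -0.73 in control male replicate 2, where the other control males lay from -0.22 to -0.14 for Hadh and from -0.33 to -0.21 for Decr1.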

How the results depend on the processing

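limma called none of the 27 genes in any of the 5 comparisons under any of the 12 planned settings, with any 1 array left out or in the 2 added settings. The share of all features under the other settings is not given here, so the counts that follow are no result about the members. With median centring the median of all features in males was itself -0.19. The number of members at an unadjusted p under 0.05 moved. In males it was 2, against 12 with median centring, 1 with scale normalization and 5 on the slides that hold all groups. In females it was 1, against 0, 2 and 3 under the same settings and 3 with array weights, and for the mean of the sexes 3, against 6 with median centring. For the difference between the sexes in the response to diet it was 0, against 6 with median centring, 4 on those slides, 2 with Cy5 alone and 1 each with the slide as a block, array weights or both arrays of widest spread left out. Between males and females it was 2, against 4 with the slide as a block or on those slides and 1 with Cy5 alone, the deposited table, the replicate block or both widest arrays left out. With 1 array left out these numbers ran from 2 to 4 in males (4 without control male replicate 2). In females they ran from 0 to 2 (0 without CR female replicate 2 or 3, 2 without CR female replicate 5 or 6). For the difference between the sexes in the response to diet they ran from 0 to 1. Between males and females they ran from 0 to 5 (0 without CR male replicate 1 or 3, 5 without control male replicate 4).

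Median centring turned the Cpt1a difference between the sexes in response (0.27) to -0.032, the Decr1 mean of the sexes (0.17) to -0.044, and the r of Eci1 and Etfb with T cell markers to 0.167 and 0.424. Cpt1a in males minus females (0.03) was -0.048 with median centring, -0.070 with scale normalization and -0.006 with array weights, and ran from -0.021 to 0.061 with 1 array left out. The cause was not tested. Of 33 pairs of same-numbered arrays 14 had an r over 0.1, and r ran from -0.419 to 0.462. Pairs of other numbers were not set beside them, so whether same-numbered arrays deviate together was not tested. With the replicate block Cpt1a in males was 0.35, and no member was called. The r of Acsl1 and Ucp2 with red cell markers ran from 0.753 to 0.86 and from 0.794 to 0.939 over 5 other normalizations.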
